A study of Mus musculus with 3 samples.

Results

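The MHC class II pathway was followed through 10 genes that load peptides onto class II molecules or switch those genes on. They were chosen by name from the pathway and not by their values, though earlier results of these data were known. All 10 were found by symbol among the 55536 genes of the tables. They comprised the classical chains H2-Aa, H2-Ab1 and H2-Eb1, the invariant chain Cd74, the peptide editor genes H2-DMa, H2-DMb1 and H2-DMb2, the genes of its inhibitor H2-Oa and H2-Ob, and the transactivator Ciita. The 8 H2 genes lie together on chromosome 17, between position 34092340 at the start of H2-Oa and 34316674 at the end of H2-Eb1 (mm10). Cd74 lies on chromosome 18, from 60803848 to 60812652, and Ciita on chromosome 16, from 10480059 to 10528418.

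RNA was measured in the cytosolic fraction of C57BL/6J bone-marrow-derived macrophages, primary cells grown out of marrow, by total RNA sequencing after ribosomal RNA depletion. All cells had received lipid A, the part of bacterial lipopolysaccharide that Tlr4 senses, at 100 ng/ml for 12 hours, then 12 hours of washout and a further 60 minutes at 100 ng/ml. The 3 libraries, each from 1 µg of RNA, formed 1 group under the same donor entry, with age and sex not recorded, so the spread between them may be technical. Untreated cells were not analysed here, so no response to lipid A can be read from these levels.

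Class II molecules are pairs of an α and a β chain that carry peptides from endosomes to the cell surface, where CD4+ T cells read them. Newly made pairs are escorted by the invariant chain, which is cut down by endosomal proteases. H2-DM then exchanges its last fragment for a peptide, and H2-O restrains H2-DM, mainly in B cells. Ciita encodes the coactivator that these genes share. It does not bind DNA itself, and is recruited by factors that sit on the X and Y boxes of class II promoters. Macrophages are known to hold modest class II levels until interferon-γ induces Ciita.

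Depth was similar in the 3 libraries, with 46546422 to 53364168 expected counts on genes, so that 3 counts, the limit allowed by a count of 0, stood for 0.0562 to 0.0645 CPM (counts scaled to a fixed library total). This limit covers counting error only. Levels are given as TPM, a transcript abundance scaled for gene length and for the sum over all genes. Protein-coding genes held 34.5%, 29.0% and 27.5% of TPM in replicates 1, 2 and 3. All 10 macrophage markers stood above 1 TPM, with a summed level of 4986 to 6599 TPM. Of 11 B cell markers, Cd22 at 7 ± 3.50 TPM and Cd79b at 1.53 ± 0.346 TPM (SD, n = 3) stood above it, and the summed level was 5.85 to 12.9 TPM. The defining B cell genes Cd79a and Ms4a1 averaged 0.00667 TPM each, and Blk and Cr2 were listed at 0. Of 12 dendritic cell markers, Clec10a stood above 1 TPM, at 2.80 ± 0.336 (SD, n = 3), and the summed level was 5.76 to 6.79 TPM. Batf3 at 1.42 ± 0.521 TPM and Ccr7 at 0.917 ± 0.275 TPM (SD, n = 3 each) could not be placed on either side of 1 TPM. Flt3 and Zbtb46, which define dendritic cells, averaged 0.0267 and 0.06 TPM, and Cd209a was listed at 0. The 8 T and NK cell markers averaged at most 0.0833 TPM each. Of 7 neutrophil markers, S100a8 at 3.14 TPM and S100a9 at 4.66 TPM stood above 1 TPM.

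In these macrophages the invariant chain, the classical chains and one DM pair were well expressed, the transactivator was low, and the H2-O genes and H2-DMb2 were near 0. Of the 10 genes, 7 stood above 1 TPM and 3 below it (limma on log2(TPM + 1), Benjamini-Hochberg adjusted p under 0.05). Over all 20685 genes tested, 44.5% stood above and 50.4% below. The members' median was 17.6 TPM, against 0.68 TPM over all genes tested. In bulk RNA, fewer cells of a type and less RNA per cell cannot be told apart, so these are averages over the culture.

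**Figure D1:**
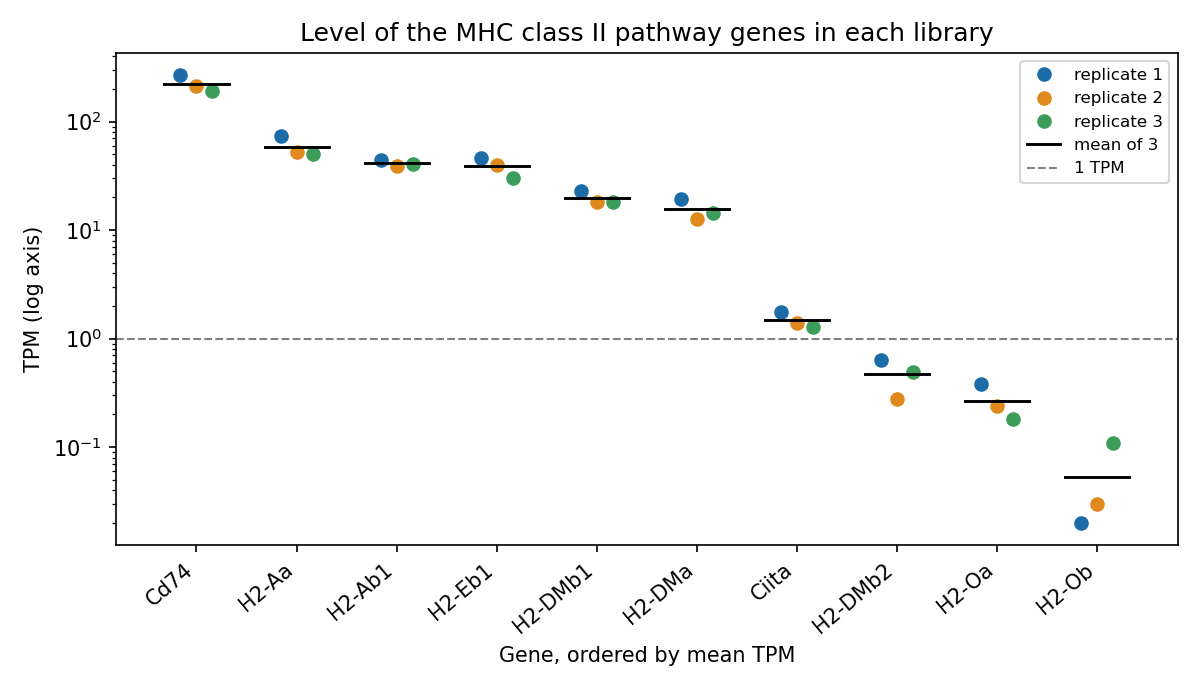
TPM (log axis) of each of the 10 genes in each of the 3 libraries, with points for replicates 1 to 3 and a bar for their mean. Genes are ordered by mean TPM, from Cd74 at 224 TPM to H2-Ob at 0.0533 TPM, and the dashed line marks 1 TPM.

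Among the classical chains, H2-Aa, which encodes the α chain of I-A, had 73.8, 52.0 and 50.1 TPM in replicates 1, 2 and 3. H2-Ab1, the gene of its β chain partner, had 44.6, 38.8 and 40.3 TPM. H2-Eb1, the β chain gene of I-E, had 45.9, 39.4 and 30.5 TPM. H2-Aa exceeded H2-Ab1 in all 3 libraries and their ranges did not overlap, while H2-Ab1 and H2-Eb1 overlapped and did not differ beyond their spread. The mean levels were 58.6 ± 13.2 TPM for H2-Aa, 41.2 ± 2.99 TPM for H2-Ab1 and 38.6 ± 7.71 TPM for H2-Eb1 (SD, n = 3 each). Each of the 3 chains therefore lay above at least 91.5% of expressed protein-coding genes in mean TPM.

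Within a library, H2-Aa over H2-Ab1 was 1.66-, 1.34- and 1.24-fold in plain TPM, a log2 ratio of 0.48 ± 0.21 (SD, n = 3) on the log2(TPM + 1) scale used for all ratios. H2-Eb1 over H2-Ab1 had a log2 ratio of -0.11 ± 0.24 (SD, n = 3), with H2-Eb1 slightly higher in replicates 1 and 2 and lower in replicate 3. Without replicate 3 this ratio was 0.032, and in a second set of transcript tables it was 0.056, so no order of these chains can be given. With 3 libraries, an exact two-sided sign-flip test of a ratio cannot go below 0.25. I-E needs the α chain of H2-Ea, and mice of the b haplotype, C57BL/6J included, are known to carry a promoter deletion in that gene. Its entry H2-Ea-ps had 0 counts in each of the 3 libraries, while its partner H2-Eb1 had 3104, 3231 and 2423 expected counts. H2-Eb2, a further β chain gene of the region, had 12, 10 and 9 counts and stood below 1 TPM, at 0.0367 TPM.

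Cd74, the invariant chain gene, had 267, 211 and 193 TPM in replicates 1, 2 and 3, on 20780, 20458 and 16759 expected counts. It was the highest of the 10 genes in every library. Its mean of 224 ± 38.5 TPM (SD, n = 3) ranked 173 among expressed protein-coding genes. Cd74 exceeded H2-Ab1 by 5.99-, 5.45- and 4.78-fold in the 3 libraries, a log2 ratio of 2.40 ± 0.16 (SD, n = 3). It held 56.0%, 56.4% and 55.4% of the members' summed TPM, which was 476, 374 and 348 TPM. That sum was 0.138%, 0.129% and 0.127% of the TPM of protein-coding genes. For comparison, the class I heavy chain gene H2-K1 exceeded H2-Ab1 by 47.6-, 41.7- and 58.8-fold.

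The genes of H2-DM, the editor, were uneven. H2-DMb1, which encodes a DM β chain, had 22.8, 18.3 and 18.2 TPM in replicates 1, 2 and 3. H2-DMa, the single DM α chain gene, had 19.5, 12.8 and 14.3 TPM. H2-DMb2, the other DM β chain gene, had 0.64, 0.28 and 0.49 TPM, far below both in every library. The means were 19.8 ± 2.65 TPM for H2-DMb1, 15.5 ± 3.53 TPM for H2-DMa and 0.47 ± 0.181 TPM for H2-DMb2 (SD, n = 3 each). H2-DMa was lower than H2-DMb1 in all 3 libraries, with a log2 ratio of -0.35 ± 0.14 (SD, n = 3), although the ranges of the DM pair across libraries overlapped. H2-DMb2 over H2-DMb1 had a log2 ratio of -3.82 ± 0.12 (SD, n = 3).

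H2-DMb1 and H2-DMb2 are close copies. The coding sequences of H2-DMb1-201 and H2-DMb2-201, of 783 bases each, were 95.9% identical, with 32 mismatches and no gap. H2-DMb2-201 held 13.9% of the gene's TPM on average, and the leading transcript H2-DMb2-203, with 390 coding bases, was not aligned. Other pairs of members shared less, at 72.6% for H2-Ab1 with H2-Eb1, 62.0% for H2-Aa with H2-Oa, 61.8% for H2-Ab1 with H2-Ob, 52.1% for H2-Aa with H2-DMa and 50.7% for H2-Ab1 with H2-DMb1. Reads of the DM β copies can be divided wrongly, and whether this happened was not tested. H2-DMb2 had 57.0, 31.0 and 48.7 expected counts, beside 2028, 1995 and 1786 for H2-DMb1. The deposited error of the H2-DMb2 counts (posterior SD) was 1.49, 1.02 and 1.4 counts in replicates 1, 2 and 3. H2-DMb2 stood below 1 TPM (limma adjusted p = 0.0013). With TPM scaled over coding genes alone it averaged 1.54 TPM, on the other side of that level, but could no longer be placed. That scale raised genes in general, by a median log2 shift of 1.72. H2-DMa overlaps exons of Brd2 on the opposite strand, which had 75.5 to 82.7 TPM. Strand use in counting is not given in the sources used here. The posterior SD of the H2-DMa counts was 0.29, 0.24 and 0.56 counts in replicates 1, 2 and 3. Whether reads of this overlap were divided wrongly was not tested.

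The genes of H2-O, the inhibitor of H2-DM, were the lowest. H2-Oa, the α chain gene, had 0.38, 0.24 and 0.18 TPM on 25, 19 and 13 expected counts in replicates 1, 2 and 3. H2-Ob, the β chain gene, had 0.02, 0.03 and 0.11 TPM on 2, 6 and 9 counts, and its first library lay under the limit of 3 counts. H2-Oa was higher than H2-Ob in all 3 libraries and their ranges did not overlap. In the second tables H2-Oa had 0.165, 0.128 and 0.103 TPM and H2-Ob 0.0347, 0.0508 and 0.283 TPM, so the order turned round in replicate 3 and the ranges overlapped. H2-DMb2 was above H2-Oa in all 3 libraries, with overlapping ranges. Both H2-O genes stood below 1 TPM (limma adjusted p = 2.5e-05 for H2-Oa and 1.5e-07 for H2-Ob), and with TPM over coding genes H2-Oa could no longer be placed. H2-DMa exceeded H2-Oa by 51.3-, 53.1- and 79.4-fold in the 3 libraries, a log2 ratio of 3.69 ± 0.21 (SD, n = 3).

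Ciita, the transactivator gene, had 1.75, 1.4 and 1.27 TPM in replicates 1, 2 and 3 on 628, 651 and 489 expected counts. It lay between H2-DMa and H2-DMb2 without overlap with either. It was placed above 1 TPM (limma adjusted p = 0.012), a call lost without replicate 1 or without replicate 2 and turned round in the second tables, where its mean was 0.745 TPM. TPM was lower in those tables for genes in general, with a median log2 shift of -1.14 over 4123 genes at 10 TPM or more, and for 9 of the 10 members, H2-Ob being the exception. H2-Ab1 exceeded Ciita by 25.5-, 27.7- and 31.8-fold, a log2 ratio of 4.10 ± 0.08 (SD, n = 3). Ciita overlaps exons of Dexi on the opposite strand, which had 2.19, 2.81 and 2.34 TPM, above Ciita in each library. By expected counts Dexi was below Ciita in each library, at 181, 264 and 194. The deposited error of the Ciita counts (posterior SD) was 0 in each of the 3 libraries. Whether reads of the overlap with Dexi were divided wrongly was not tested.

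Promoter sequences were at hand for 7 of the 10 genes in the RefSeq table (GRCm38.p6), which spans 250 bases before to 50 after each gene's start. All but that of H2-DMa are shown, because genes of high level (H2-Aa, H2-Eb1, H2-DMb1) and of very low level (H2-DMb2, H2-Oa, H2-Ob) stand side by side. The fixed motifs were the X core AGCAAC, bound by the RFX complex, the X2 core TGACG, of the CREB type, and the Y box ATTGG, the reverse of the NF-Y site CCAAT. A longer motif, AACNNATGATG, which overlaps the X core in its letters AAC, was read from the sequences of 4 members after they had been seen, with N where they differ. Capitals mark matches on the printed strand. H2-Oa and H2-DMb1 are given as 30 bases only, because the longer window of each overlapped an annotated exon. Their ATTGG lies beyond the stretch shown. The RefSeq starts of H2-DMb1 and H2-DMb2 lie downstream of the GENCODE gene starts, so both windows lie inside the GENCODE genes, and that of H2-DMb1 lies in an annotated exon. Those of H2-Oa and H2-Ob also lie downstream, but the bases shown for them end before the GENCODE gene starts.
H2-Aa, chr17:34287857-34287909, minus strand: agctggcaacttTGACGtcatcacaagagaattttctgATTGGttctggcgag
H2-Eb1, chr17:34305763-34305822, plus strand: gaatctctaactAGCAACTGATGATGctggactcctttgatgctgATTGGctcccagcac
H2-DMb1, chr17:34153096-34153125, plus strand: agtAACTGATGATGctaggctgattcactc
H2-DMb2, chr17:34145116-34145173, plus strand: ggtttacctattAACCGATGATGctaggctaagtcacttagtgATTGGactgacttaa
H2-Oa, chr17:34092299-34092328, plus strand: cccAGCAACaaacccattatctcagagaac
H2-Ob, chr17:34238805-34238862, plus strand: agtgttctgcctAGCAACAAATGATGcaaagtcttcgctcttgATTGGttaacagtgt

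ATTGG was present, on either strand, in the promoters of all 7 genes and in 37.4% of the 32851 promoters in the table. The X core was present in those of H2-Eb1, H2-Oa and H2-Ob, and in 14.8% of all promoters. Followed by ATTGG on the same strand after 10 to 30 bases, it was present in the same 3 genes and in 0.359% of all promoters. TGACG was found in H2-Aa alone of the 7, and in 20.8% of all promoters. The longer motif was found in H2-Eb1, H2-DMb1, H2-DMb2 and H2-Ob, and in 45 promoters of the table (0.137%). Its presence in these 4 genes was fixed by its choice. Of the 7 genes, H2-DMa alone held ATTGG and none of the other motifs. These matches describe letters in these windows and do not show binding.

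For 5 of the 10 genes nearly all abundance lay in 1 coding transcript. This leading transcript held 99.5% ± 0.186 of the TPM of H2-Aa, 95.9% ± 0.501 of H2-Ab1, 94.1% ± 1.98 of H2-DMa, 99.6% ± 0.408 of H2-DMb1 and 97.8% ± 3.89 of H2-Oa (SD, n = 3 each). H2-DMb2 was divided between H2-DMb2-203 at 86.1% ± 12.2 and H2-DMb2-201 at 13.9% ± 12.2, both annotated as coding, with 390 and 783 coding bases. H2-Ob had too few reads for shares, and transcript H2-Ob-202 held 100% in replicate 1 on 2 counts. In replicate 3, most of the H2-Ob TPM lay in the retained-intron transcript H2-Ob-204, at 69.9%, with 23.5% in the coding H2-Ob-201. In the second tables H2-Ob had 7, 13 and 49 counts, and retained-intron transcripts held 87.4% ± 10.6 of its TPM (SD, n = 3).

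**Figure D2:**
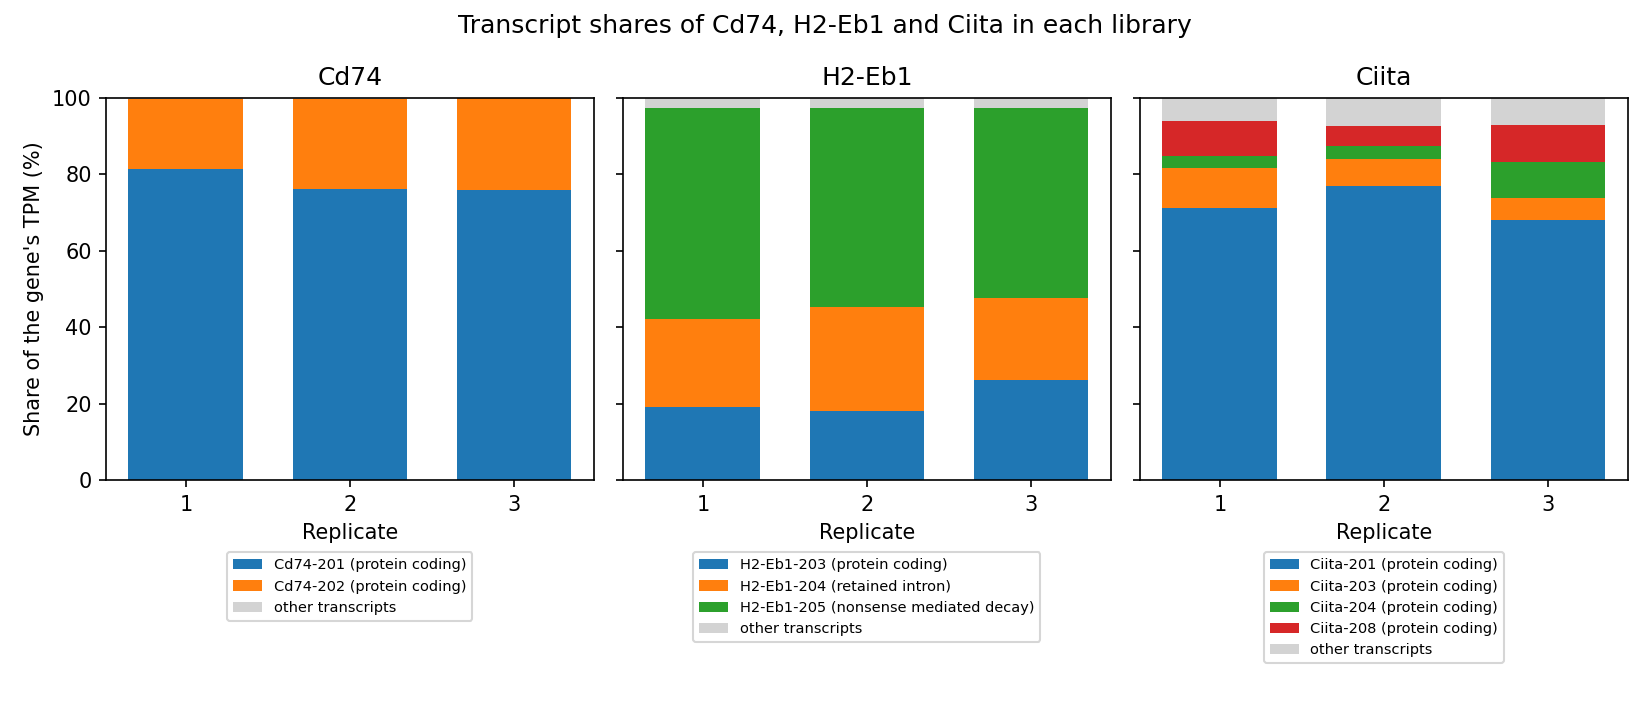
Share of the gene's TPM (percent, stacked bars) in each transcript of Cd74, H2-Eb1 and Ciita in replicates 1 to 3, with transcripts under a mean of 5% pooled in grey. Cd74-202 holds 18.2% to 23.9%, H2-Eb1-205 holds 49.8% to 55.1% and Ciita-201 holds 68.2% to 77.0%.

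Cd74 was divided between a shorter and a longer coding form. Cd74-202 has an additional exon of 192 bases, which encodes the thyroglobulin-like domain of the long invariant chain, a domain known to bind cathepsin L. It held 18.2%, 23.6% and 23.9% of Cd74 TPM in replicates 1, 2 and 3, or 21.9% ± 3.21 (SD, n = 3). Cd74-201, without that exon, held 77.9% ± 3.13 (SD, n = 3), so the short form was the main one in every library. In the second tables the long form held 24.6% ± 4.06 (SD, n = 3).

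H2-Eb1 was assigned mostly to a transcript annotated as subject to nonsense-mediated decay. H2-Eb1-205 held 55.1%, 52.0% and 49.8% of its TPM in replicates 1, 2 and 3, or 52.3% ± 2.66 (SD, n = 3). The coding H2-Eb1-203 held 21.1% ± 4.48 and the retained-intron H2-Eb1-204 held 23.9% ± 3.02 (SD, n = 3 each). H2-Eb1-205 lacks the first 53 bases of exon 2 (chr17:34309591-34309643, mm10), which is not a multiple of 3. The lines below show the end of exon 1 and the start of exon 2 in each transcript, with those 53 bases in capitals.
H2-Eb1-203: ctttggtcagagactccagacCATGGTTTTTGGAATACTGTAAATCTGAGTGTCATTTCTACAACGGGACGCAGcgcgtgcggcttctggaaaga
H2-Eb1-205: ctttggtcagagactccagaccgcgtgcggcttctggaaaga

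None of the 5 annotated H2-Eb1 transcripts, 0 of 5, joined the full exon 2 of 270 bases, the exon 4 of 111 bases and the short last exon of 326 bases. H2-Eb1-203 had the first pair with a last exon 475 bases longer, and H2-Eb1-205 had the second pair with the shortened exon 2. H2-Eb1-201 had the full exon 2 and the short last exon, but an exon 4 of 238 bases. The length of the last exon and the form of exon 2 can therefore bear on different transcripts. The deposited shares do not say which reads set them. Whether reads crossed the H2-Eb1-205 junction was not tested. The second tables, on the same annotation, gave H2-Eb1-205 a share of 56.6% ± 2.34 and H2-Eb1-203 a share of 9.01% ± 2.11 (SD, n = 3 each).

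Ciita is known to start from alternative first exons that differ between cell types. Its 8 annotated transcripts began in 3 places on chromosome 16, from 10480059 to 10480164, from 10488178 to 10488279 and from 10489746 to 10489783 (mm10). The middle starts held 73.0%, 78.0% and 69.4% of Ciita TPM in replicates 1, 2 and 3, the most in each library. The last starts held 21.04% ± 4.68 and the first ones 5.48% ± 0.977 (SD, n = 3 each), against 33.7% ± 5.38 and 8.51% ± 2.33 by the second tables. Ciita-201 alone held 72.2% ± 4.44 (SD, n = 3), and 55.6% ± 5.26 in the second tables, where the middle starts held 57.8% ± 5.06. Ciita-201 is also the transcript with the farthest 3′ end, 1992 bases beyond the next, so a share set by its first exon and one set by its 3′ end cannot be told apart. Of the transcripts with the last starts, Ciita-208 held 8.01% ± 2.27, Ciita-203 held 7.69% ± 2.34 and Ciita-204 held 5.34% ± 3.55 (SD, n = 3 each). In the second tables Ciita-208 held 15.0% and Ciita-203 held 13.9%.

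Most members, like most genes tested, differed between the 3 libraries by more than counting noise. By a chi-square test of rounded expected counts, 7 of the 9 members with at least 30 counts varied between libraries beyond sampling noise (Benjamini-Hochberg adjusted p under 0.05), as did 69.3% of the 13075 genes tested. The adjusted p was 9.8e-33 for Cd74, 1.5e-25 for H2-Aa, 2e-09 for H2-Eb1, 5.7e-08 for H2-DMa, 0.0028 for H2-Ab1, 0.012 for H2-DMb2 and 0.021 for Ciita. H2-DMb1 and H2-Oa did not pass, at adjusted p = 0.14 and 0.27, and H2-Ob was too low to test. Library sizes from TMM or from DESeq2 also gave 7 members, with H2-DMb1 in place of H2-Ab1. The shares over all genes were then 67% and 67.1%. Without replicate 3 the count was 4, namely H2-Aa, H2-DMa, H2-DMb2 and Cd74, while the share over all genes was 53.9%.

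By TPM, replicate 1 was the highest library for 9 of the 10 genes, H2-Ob being the exception. This was also so for all 6 members at a mean of at least 10 TPM, and for 74.8% of the 4132 genes at that level. The median deviation of those genes from their own mean was 0.15, -0.04 and -0.12 in replicates 1, 2 and 3 on the log2 scale. With TPM scaled over coding genes alone, 4 of the 6 members were highest in replicate 1, against 25.7% of the 4132 genes. The coefficient of variation of Cd74 was 17.2% by TPM and 4.93% by coding TPM. For H2-DMb1 it was 13.4% and 2.59%, and for H2-Aa 22.5% and 10.02%. H2-Aa and H2-DMa were highest in replicate 1 on either scale, while H2-Ab1 was highest in replicate 3 and H2-Eb1 in replicate 2 over coding genes.

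**Figure D3:**
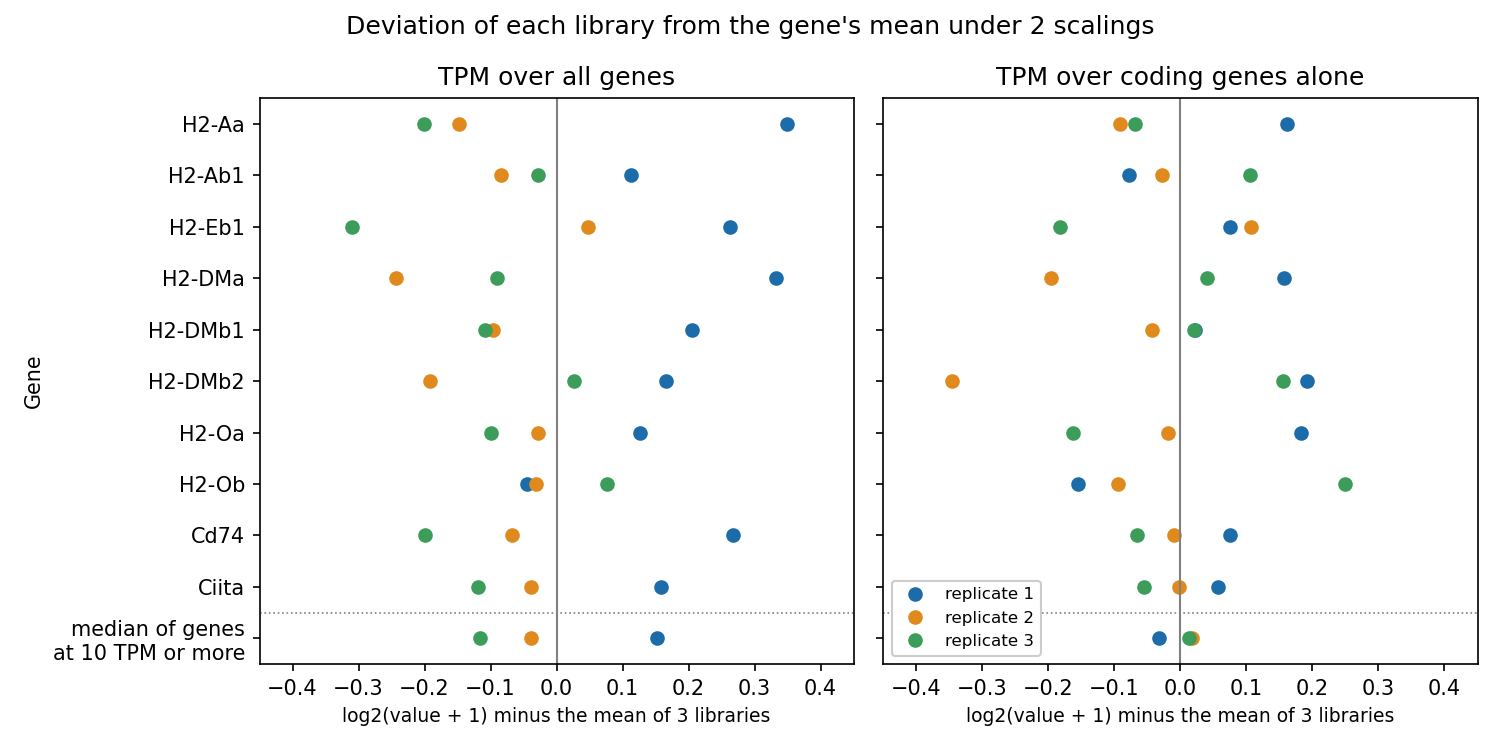
Deviation of each library from the gene's own mean over the 3 libraries, as log2(value + 1), for TPM over all genes (left) and over coding genes alone (right), with the median of genes at 10 TPM or more in the bottom row. By TPM replicate 1 lies to the right for all members except H2-Ob, as does the median at 0.15, and over coding genes the median of replicate 1 is -0.03.

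Other measures also differed between the libraries. The 7SK RNA Rn7sk had 27778, 26912 and 68232 TPM and the nuclear RNA Malat1 112, 90.6 and 452 TPM in replicates 1, 2 and 3, both highest in replicate 3. The 6 stromal markers summed to 0.09, 7.08 and 3.15 TPM, the lowest in replicate 1, with Col1a1 at 1, 1325 and 612 counts. Their part in the spread of the class II genes was not tested.

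The mean deviation of the 6 members at 10 TPM or more was 0.25, -0.10 and -0.16 in replicates 1, 2 and 3. Among the other genes at that level, Rnf14, Atp6ap2, Cd84, Ctso and Caprin1 came nearest to this pattern, each within 0.01 on the log2 scale in every library. Over 3 libraries this is a weak measure of likeness, and 828 of 4126 genes (20.1%) lay within 0.1 of the pattern.

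Genes that act on the class II genes or their products were mostly expressed. Of 24 regulators, 23 stood above 1 TPM and 1 below, with a median of 20.7 TPM. Of all genes tested, coding or not, 44.5% stood above and 50.4% below. Among the highest were Irf1 at 261 ± 82.6 TPM, an interferon-induced factor that acts on Ciita, and the myeloid factor Spi1 at 98.5 ± 13.1 TPM (SD, n = 3 each). The gene below was Irf4, at 0.24, 0.71 and 0.16 TPM, a call lost without replicate 1 or without replicate 3. The RFX subunits that hold Ciita at the X box stood low, with Rfx5 at 2.61 ± 0.546, Rfxank at 2.85 ± 0.535 and Rfxap at 3.47 ± 0.747 TPM (SD, n = 3 each), named here after their values were seen. They were above Ciita in every library.

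Of 12 genes of endosomal processing, 11 stood above 1 TPM and 1 below, with a median of 211 TPM. The proteases Ctsd at 2622 ± 137 TPM, Ctsb at 2079 ± 372 TPM and Ctss at 1235 ± 224 TPM (SD, n = 3 each) led the list, and Ctss is the one known to make the last cuts in the invariant chain. Ctse, a further protease, was the gene below, at 0.173 TPM. All 15 genes of traffic and turnover stood above 1 TPM, with a median of 43.2 TPM. For both lists the share above over all genes tested was 44.5%. The lysosomal membrane gene Lamp1 at 596 ± 106 TPM, the tetraspanin Cd63 at 233 ± 33.3 TPM and the adaptor subunit Ap2m1 at 163 ± 29.97 TPM led (SD, n = 3 each), and Cd9 was lowest at 5.28 ± 1.61 TPM (SD, n = 3). The ubiquitin ligase gene March1, which removes class II from the surface, had 55.5, 34.7 and 39.3 TPM, and Cd83, which opposes it, had 143, 168 and 69.7 TPM, both named after their values were seen.

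The region around the class II genes was mixed, as were the genes tested in general. Of 10 other genes of the region, 5 stood above 1 TPM, 4 below and 1 was listed at 0. The shares over all 20685 genes tested were 44.5% above and 50.4% below. Psmb8, a subunit of the immunoproteasome, had 193 ± 39.9 TPM, Tap1, a subunit of the peptide transporter of class I, had 84.6 ± 17.9 TPM and the chromatin reader Brd2 had 78.8 ± 3.64 TPM (SD, n = 3 each). H2-Aa and H2-Ab1 lay below these 3 and above Tap2, the partner of Tap1, at 32.7 TPM (named after its value was seen), and H2-DMb2, H2-Oa and H2-Ob lay with the low genes, of which Btnl1 was the lowest measured at 0.00333 TPM.

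**Figure D4:**
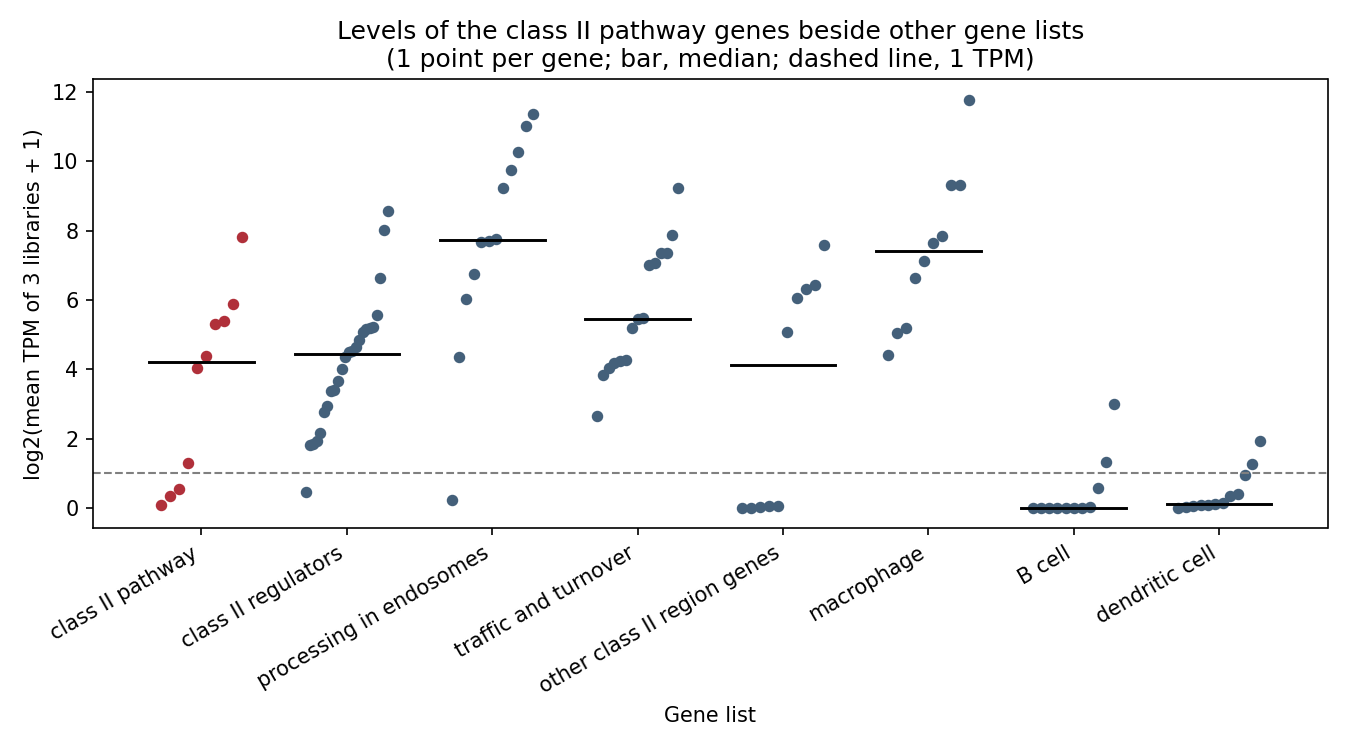
Mean level over the 3 libraries as log2(TPM + 1), 1 point per gene, for the 10 class II pathway genes (red), the other gene lists and the macrophage, B cell and dendritic cell markers, with a bar at the list's median and a dashed line at 1 TPM. The class II genes spread from near 0 to Cd74 at 224 TPM around a median of 17.6 TPM, and the median of the endosomal processing genes is 211 TPM.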

How the data were processed

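For every library the series holds a gene table and a pair of transcript tables, on build mm10 with GENCODE M21, per the text deposited with it. Estimated counts (expected counts), with fractional values, were deposited by the authors per gene and transcript, per the file headers. The authors computed TPM per effective length, per the file headers. The authors also deposited IsoPct, a transcript's percent of the abundance of its gene, as its header names it. The second transcript tables held their own estimated counts and TPM, which were summed here to genes. Not given in the sources used here are the aligner, the quantification tools and whether counting used strand. TPM is shared out over all RNA, so more short structural RNA in a library lowers the TPM of its messenger RNA.

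The level of each gene was set against 1 TPM with limma 3.58.1 (R 4.3.3), fitting a mean alone to log2(TPM + 1) with trend and robust moderation. All genes above 0 TPM in any library entered this fit. A pseudocount of 1 compresses differences among low genes. Noise was tested by chi-square (2 degrees of freedom) on counts rounded to whole numbers. TMM sizes came from edgeR 4.0.16 and size factors from DESeq2 1.42.0, used for scaling only. Entries that are not genes were left out and held 0.378%, 0.0931% and 0.0772% of counts in replicates 1, 2 and 3. The longest coding sequences among transcripts at a mean share of at least 5% were aligned end to end with Biopython 1.88, in place of proteins. The level and noise tests were also run on simulated data, and the outcome is not reported here. Other work used Python 3.11.15, pandas 2.3.3, numpy 2.4.6, scipy 1.17.1 and matplotlib 3.10.9.

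The members and lists were chosen with earlier results of these data known. The genes named were all members, their transcripts at a mean share of at least 5%, the 3 highest and the lowest measured gene of each list, and the 5 genes nearest to the members' library pattern. Spi1 stood in both the regulator and the macrophage list, and H2-Ea is not analysed here. Some list genes are not reported here. The settings varied were the pseudocount (0.1), the filter (mean count 10), the level (5 TPM), the noise minimum (100 counts), the scaling (TPM over nuclear coding genes, TMM, size factors), the set of tables, and each replicate left out in turn.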

Additional observations from a re-analysis of the deposited data

How the results depend on the processing

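No paired analysis was possible because the libraries form 1 group. Of the checks of a main comparison under an alternative, 127 kept direction and size within the limits set, 17 moved and 2 reversed. Of the checks of the remaining single levels and transcript shares, 161 kept both, 26 moved, 3 weakened and 3 reversed. Those 3 were the level of H2-DMb2 over coding genes and that of Ciita at 5 TPM and in the second tables. With TPM over coding genes, 7 members stood above 1 TPM, and 1 member and 0 regulators below it. That scale raised genes in general, by a median log2 shift of 1.72. Shares of all genes above or below the level are not reported here for this or the other settings. The levels of H2-DMb2 and Ciita against 1 TPM were then 0.32 and 1.55 on the log2 scale, and H2-Oa was at -0.11. H2-DMb2 and H2-Oa were not placed. At a level of 5 TPM, 5 regulators stood below it and Ciita was at -1.28. In the second tables Ciita was at -0.20. Leaving out each replicate placed 0 to 1 regulators below 1 TPM (0 without replicate 1 or 3) and gave 4 to 6 members beyond sampling noise (4 without replicate 3), while the share of all genes was 51.3% to 53.9%, against 69.3% with all libraries. Ciita, no longer placed, was at 0.22 without replicate 1 and 0.32 without replicate 2. With a mean count of at least 10, 1 other gene of the region stood below 1 TPM, since fewer genes were tested.

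In the second tables the log2 ratios were 0.056 for H2-Eb1 over H2-Ab1, -2.98 for H2-DMb2 over H2-DMb1, 0.019 for H2-Oa over H2-Ob, 2.80 for H2-DMa over H2-Oa and 3.46 for H2-Ab1 over Ciita. With a pseudocount of 0.1 they were -5.17 for H2-DMb2 over H2-DMb1, 1.27 for H2-Oa over H2-Ob, 5.42 for H2-DMa over H2-Oa and 4.72 for H2-Ab1 over Ciita, as a smaller pseudocount compresses low genes less. Leaving out each replicate gave -0.18 to 0.032 for H2-Eb1 over H2-Ab1. The share of H2-Eb1-205 was 56.6% and that of Ciita-201 55.6% in the second tables, and the cause was not tested. Depth limits H2-Ob, at 2 to 9 counts, and H2-Oa, at 13 to 25.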
